A study of Mus musculus with 6 samples.

Results

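The 32 genes described here are p53 itself (Trp53), its regulators, genes that p53 is known to switch on, and genes that stop cell growth. They were chosen by name, with earlier results of these data known. Where a gene had several probe sets its brightest stands for it, and all 32 were found among the 22061 genes that the arrays name. RNA came from MCT cells, a proximal tubular epithelial line made from the renal cortex of SJL mice, on 6 Affymetrix arrays. The control group was 3 vehicle-treated cultures, and the TWEAK group was 3 cultures given 100 ng/mL TWEAK for 6 h, the groups being numbered 1 to 3 each. All cultures were subconfluent and had rested overnight in medium without serum before the treatment, so both groups share that withdrawal. The series describes the 3 of each group as independent experiments, and p-values measure the spread between these arrays of 1 cell line. TWEAK is a cytokine of the TNF superfamily that signals through the receptor Fn14, and the comparison asks which transcripts differ after it.

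p53 is a transcription factor that cells hold at a low level because the ubiquitin ligase Mdm2, itself a p53 target, marks it for breakdown. DNA damage and other stress free p53 from Mdm2, and it then turns on genes that halt the cell cycle, repair DNA, adjust metabolism or start apoptosis. In kidney tubules p53 and its target Cdkn1a are known for their part in cell cycle arrest after acute injury. Much of p53 control is by protein stability, which an RNA array does not measure.

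TWEAK-treated cells held less RNA for 5 of the 32 genes and more for 1. The genes that fell were Ccng1 (cyclin G1, a p53 target that feeds back on Mdm2), at 2.15-fold lower, the antiproliferative gene Tob1, at 1.77-fold lower, the cyclin-dependent kinase inhibitor Cdkn1b (p27), at 1.71-fold lower, the sestrin Sesn1, at 1.70-fold lower, and the stress cytokine Gdf15, at 1.41-fold lower. Aen, a nuclease that p53 induces during apoptosis, rose 1.44-fold. Cdkn1a (p21), the classical p53 target, differed by 0.04 on the log2 scale (SE 0.20), with overlapping groups.

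A gene was called where limma gave a p below 0.05 after Benjamini-Hochberg adjustment across the 22061 genes, which 3.00% of them did (1.28% higher and 1.71% lower). Among the 32, 1 was called higher and 5 lower, and before adjustment 5 were higher and 11 lower at that threshold, against 8.15% and 13.1% of all genes. The set is bright on these arrays, with 29 of its 32 probe sets above the median gene, and of the 11030 genes above that median 5.55% passed, 3.14% as lower. In a limma fit of those 11030 genes alone, 1237 were higher and 2304 lower before adjustment. Of the 29 members in that fit, 5 were higher and 9 lower. After adjustment within it 7 of the 29 passed, 2 higher and 5 lower, and of the 11030 genes 1020 passed, 377 higher and 643 lower. The TWEAK arrays lay entirely below the control arrays for 12 of the 32 genes, against 13.5% of all genes, and entirely above them for 5, against 12.9% of all genes. These shares were not taken among the brighter genes alone. The median log2 difference of the 32 was -0.05 (quartiles -0.43 and 0.18), beside 0.03 (quartiles -0.10 and 0.12) over all genes. Over the genes above the median gene it was -0.0095. The sizes without regard to sign had a median of 0.28, beside 0.12 over all genes. The 6 calls became 8 without control 1, 1 without control 3, 2 without TWEAK 2, and 0 without control 2, TWEAK 1 or TWEAK 3 in limma. The count over all genes, 661 with every array, moved with the same arrays, to 1876, 16 and 63 on leaving out control 1, 2 or 3 and to 1, 219 and 38 on leaving out TWEAK 1, 2 or 3. Before adjustment 4 to 7 of the 32 were then higher and 9 to 12 lower at the same threshold.

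**Figure D1:**
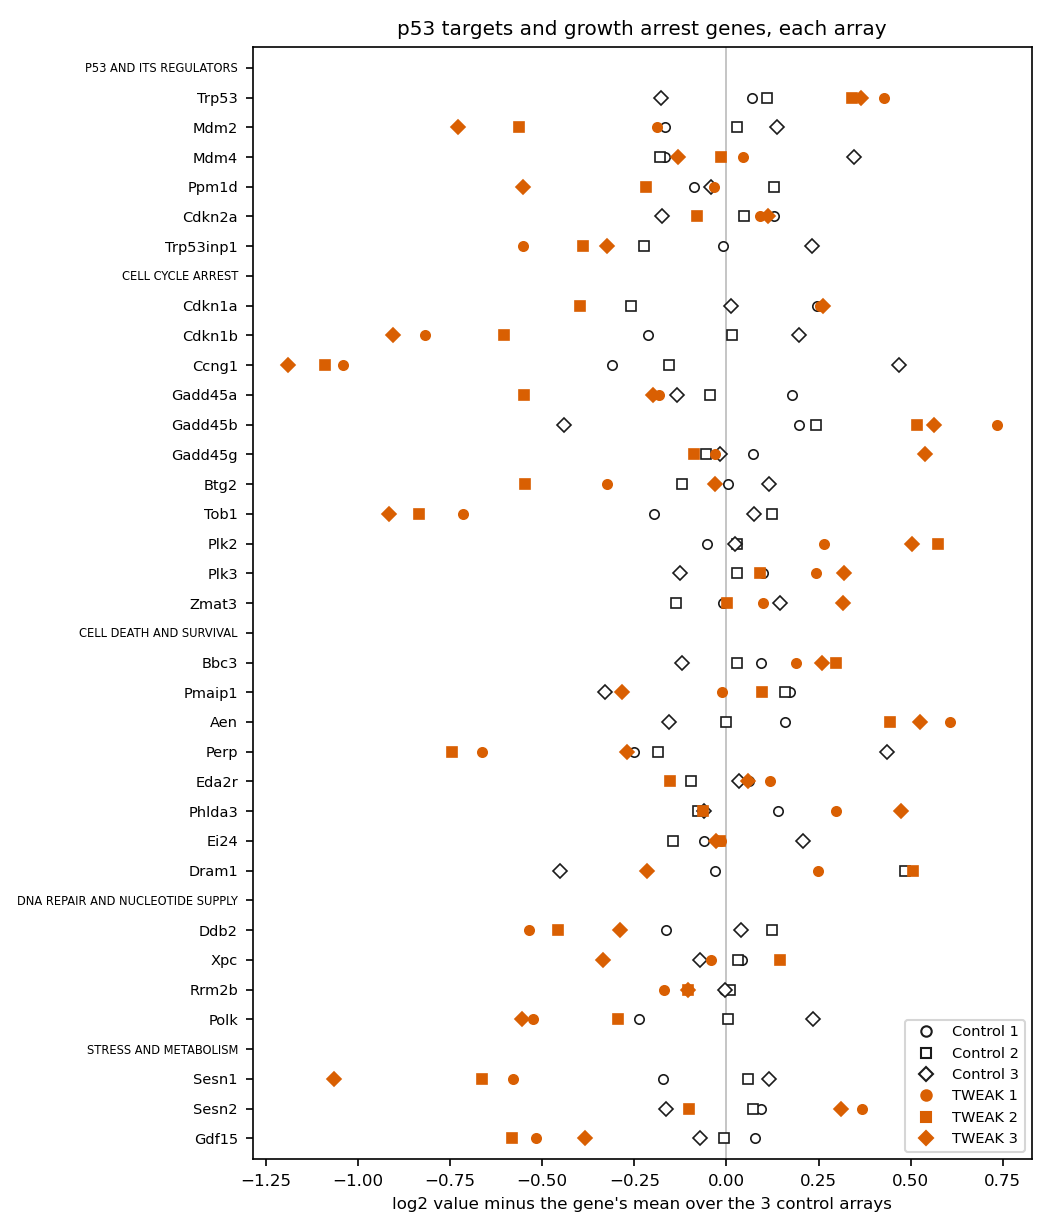
Each row is 1 gene and each symbol 1 array (open, control; filled, TWEAK; the shape gives the replicate number), on a log2 scale relative to the mean of that gene's 3 control arrays. All TWEAK symbols of Ccng1, Tob1, Cdkn1b, Sesn1 and Gdf15 lie to the left of the control symbols, those of Trp53, Gadd45b, Plk2, Bbc3 and Aen lie to the right, and those of Cdkn1a are mixed with the controls.

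The arrays resembled each other in overall signal, with medians over the named genes between 6.26 and 6.34 and lower quartiles between 4.79 and 4.92 (log2). RMA, the normalisation behind the deposited values, equalises the distributions of arrays, so this likeness follows largely from the processing. On the first principal component, the axis of largest spread between arrays (61.2%), controls 1, 2 and 3 lay at -3.26, -20.06 and -36.8. TWEAK arrays 1, 2 and 3 lay at 20.3, 9.37 and 30.45. The upper quartiles of the arrays separated the groups, at 8.51, 8.573 and 8.565 in control arrays 1, 2 and 3 and at 8.459, 8.472 and 8.432 in TWEAK arrays 1, 2 and 3. The 32 genes had a median level of 8.487, near that quartile. Whether the gap in the quartiles bears on their calls was not tested. After cyclic loess, which aligns arrays along the signal range, limma called 1 of the 32 higher and 2 lower, and over all genes 183 higher and 69 lower in place of 283 and 378. The differences were then -1.08 for Ccng1, -0.80 for Tob1, -0.76 for Cdkn1b, -0.74 for Sesn1, -0.49 for Gdf15 and 0.56 for Aen. As reported they were -1.11, -0.82, -0.78, -0.77, -0.49 and 0.53. Centring the arrays on their medians gave 325 higher and 225 lower over all genes, and again 1 higher and 5 lower among the 32. Of 10 markers of proximal tubule and epithelium limma called 0 (2 were lower before adjustment), and they covered a wide range: keratin Krt18 lay at 10.57 to 11.20 and the endocytic receptor Lrp2 at 7.83 to 9.05, whereas the brush border peptidase Anpep lay at 4.99 to 5.20 and E-cadherin, Cdh1, at 5.64 to 5.88, below the median of every array. Markers of leukocytes (4 genes, 3.98 to 6.24), endothelium (3 genes, 4.90 to 5.79) and fibroblasts (3 genes, 5.30 to 7.58) were not called either. In such RNA from whole cultures, fewer expressing cells and less RNA per cell cannot be told apart. Tnfrsf12a, which encodes Fn14, averaged 10.54 ± 0.20 over the controls and 10.88 ± 0.42 over the TWEAK arrays (SD, n = 3), and this gap of 0.34 did not pass (adjusted p = 0.399 in limma).

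Promoter sequence shows which of these genes carry, close to their start, the letters that p53 binds. RefSeq windows of build GRCm38.p6, which run from 250 bases before a start site to 50 after it, were found for 25 of the 32 genes, some with several starts. The consensus decamer of p53, a palindrome that reads alike on both strands and of which a full site holds a pair, occurred in at least 1 window of 10 of these 25 genes, compared with 9.55% of all genes with windows. The 10 were Aen, Ccng1, Cdkn1a, Ei24, Gadd45a, Mdm2, Polk, Ppm1d, Sesn1 and Trp53. Many genes of this set, though not all, were picked as p53 targets, so a high share describes the choice. The stretches below are the upstream parts of windows of genes that changed and hold the decamer (Ccng1, Sesn1, Aen) and of the classical targets Cdkn1a and Mdm2, read 5′ to 3′ on the gene's strand, with the decamer in capitals.
Ccng1, chr11:40755287-40755536, minus strand: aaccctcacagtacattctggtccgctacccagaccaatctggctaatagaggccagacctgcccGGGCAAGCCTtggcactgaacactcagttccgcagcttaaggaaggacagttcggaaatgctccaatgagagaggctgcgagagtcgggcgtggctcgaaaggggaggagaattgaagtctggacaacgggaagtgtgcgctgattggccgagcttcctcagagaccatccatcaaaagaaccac
Sesn1, chr10:41887189-41887438, plus strand: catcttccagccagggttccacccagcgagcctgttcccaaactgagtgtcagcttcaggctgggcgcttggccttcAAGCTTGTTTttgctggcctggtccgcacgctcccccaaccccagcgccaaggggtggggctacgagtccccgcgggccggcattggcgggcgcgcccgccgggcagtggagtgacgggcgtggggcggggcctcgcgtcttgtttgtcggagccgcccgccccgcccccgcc
Aen, chr7:78895808-78896057, plus strand: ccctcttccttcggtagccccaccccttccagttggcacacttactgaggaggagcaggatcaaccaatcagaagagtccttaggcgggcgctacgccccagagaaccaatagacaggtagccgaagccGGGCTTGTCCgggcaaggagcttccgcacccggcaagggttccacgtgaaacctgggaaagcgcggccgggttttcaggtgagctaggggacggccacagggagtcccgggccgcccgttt
Cdkn1a, chr17:29090729-29090978, plus strand: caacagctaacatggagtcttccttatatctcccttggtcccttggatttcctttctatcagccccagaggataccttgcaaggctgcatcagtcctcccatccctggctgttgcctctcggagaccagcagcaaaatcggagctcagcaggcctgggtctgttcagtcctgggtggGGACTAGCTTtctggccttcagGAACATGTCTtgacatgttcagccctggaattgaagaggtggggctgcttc
Mdm2, chr10:117710759-117711008, minus strand: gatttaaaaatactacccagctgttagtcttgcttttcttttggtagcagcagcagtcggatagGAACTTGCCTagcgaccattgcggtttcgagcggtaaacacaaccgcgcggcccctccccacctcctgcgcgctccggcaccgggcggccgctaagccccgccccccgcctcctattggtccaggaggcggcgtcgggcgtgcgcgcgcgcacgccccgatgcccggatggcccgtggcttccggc
The Cdkn1a stretch, upstream of the more distal of its annotated starts, was the only window of the set with 2 decamers at most 13 bases apart, an arrangement present in 0.074% of all genes. The search allowed no mismatch. The bases directly after the second Cdkn1a decamer come near the consensus and are therefore not marked, so the marked pair need not be the full site. Of all 10 genes with the decamer limma called 3, Ccng1 and Sesn1 lower and Aen higher, and did not call the other 7. It called 3.00% of all genes and 5.55% of those above the median gene. Whether carrying the decamer goes with being called was not tested. Windows of the other genes that fell, Cdkn1b, Tob1 and Gdf15, held no match. A match is a description of letters and not of binding.

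The NF-kB motif was searched in the same windows because TWEAK receptors signal to NF-kB. A loose form, a run of 3 G, any 5 bases and 2 C on either strand, occurred in 20 of the 25 genes, but also in 53.5% of all genes, and can overlap the p53 decamer, as it does in Aen. Among the called genes Cdkn1b, Tob1, Sesn1 and Gdf15, which fell, and Aen, which rose, held it, and Ccng1 did not.

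In p53 and its regulators limma called 0 of 6 genes, with 1 higher and 2 lower before adjustment. The shares of all genes before adjustment were 8.15% higher and 13.1% lower. Trp53 was at 12.14, 12.18 and 11.89 in control arrays 1, 2 and 3 and at 12.50, 12.41 and 12.44 in TWEAK arrays 1, 2 and 3 (log2). Every TWEAK value lay above every control value, by 0.38 in the mean (SE 0.10, adjusted p = 0.0731 in limma), or 1.30-fold. The call depended on the model: in limma the adjusted p was 0.0384 with trended and robust variance, and 0.0440 with array weights. Those weights were 5.60 for control 2 and 0.53 to 0.945 for the other arrays. The weighted control mean therefore rests mostly on 1 array, for this and every gene below.

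Mdm2, the ligase that limits p53, was at 8.10, 8.30 and 8.41 in the control arrays and at 8.08, 7.71 and 7.54 in the TWEAK arrays. The TWEAK values lay below the controls, narrowly so for TWEAK 1 against control 1, and the difference of -0.49 (SE 0.15) did not pass (adjusted p = 0.101 in limma; 0.0288 with array weights). Its relative Mdm4, which binds p53 and blocks its activity, averaged 6.75 ± 0.30 over the control and 6.72 ± 0.09 over the TWEAK arrays (SD, n = 3), with a 95% interval of the difference from -0.37 to 0.30. Trp53inp1, a p53 target that promotes p53 activity and autophagy, was at 6.91, 6.70 and 7.15 against 6.37, 6.53 and 6.60, without overlap (-0.42, SE 0.13, adjusted p = 0.102 in limma). Ppm1d, the phosphatase Wip1 that turns p53 signalling off, differed by -0.27 (SE 0.14) with overlapping groups, and its dimmer probe set differed by -0.01. Cdkn2a, the locus of p16 and of the Mdm2 inhibitor p19Arf, differed by 0.04 (95% interval -0.20 to 0.29). One probe set represents that locus here, so its products are not separated.

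Of the 11 genes of cell cycle arrest, 3 fell, 0 rose and 8 did not pass. By the same rule 1.71% of all genes fell and 1.28% rose. All 11 were above the median gene, and of the genes above it 3.14% fell. Ccng1 was at 8.83, 8.99 and 9.61 in control arrays 1, 2 and 3 and at 8.10, 8.05 and 7.95 in the TWEAK arrays. The TWEAK arrays agreed closely (SD 0.08) while control 3 stood above the other controls (SD 0.41), and the groups did not overlap. Ccng1 fell by 1.11 (SE 0.19, adjusted p = 0.0346 in limma), and by 0.87 without control 3. Its call was kept without control 1 (0.0142) or control 3 (0.0299) and lost without control 2 (0.111), TWEAK 1 (0.106), TWEAK 2 (0.0574) or TWEAK 3 (0.107).

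Tob1, a member of the BTG/TOB family that restrains proliferation and recruits mRNA deadenylation, was at 9.02, 9.35 and 9.30 in control cells and at 8.51, 8.39 and 8.31 in TWEAK cells. Every TWEAK array was below every control array, and Tob1 fell by 0.82 (SE 0.11), with an adjusted p of 0.0223 in limma, the smallest of the 32. Tob1 passed in 9 of 14 alternatives, among the arrays left out only without control 1 (0.0103) or TWEAK 2 (0.0483), with 0.109 without control 2, 0.0626 without control 3, 0.0824 without TWEAK 1 and 0.0794 without TWEAK 3. In the authors' deposited table, which adjusts over all probe sets, Tob1 was the only one of the 32 with a false discovery rate under 0.05, at 0.0452 and with a ratio of 0.564. The relative Btg2, an antiproliferative p53 target, overlapped through TWEAK 3, which lay inside the control range (-0.30, SE 0.14, adjusted p = 0.257 in limma).

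Cdkn1b, which holds cyclin-dependent kinases inactive in resting cells, was at 9.04, 9.27 and 9.45 in control arrays and at 8.44, 8.65 and 8.35 in TWEAK arrays. Its groups were apart in every pair of arrays, and Cdkn1b fell by 0.78 (SE 0.13, adjusted p = 0.0336 in limma). A dimmer Cdkn1b probe set differed the same way, by -1.09, at an adjusted p of 0.0764 over all probe sets. The call was kept without control 1 (0.0142) or TWEAK 2 (0.0465) and lost without control 2 (0.129), control 3 (0.0805), TWEAK 1 (0.108) or TWEAK 3 (0.106). Cdkn1a, a kinase inhibitor of the same family, was at 10.94, 10.43 and 10.70 in control arrays and at 10.94, 10.29 and 10.95 in TWEAK arrays. Its lowest value in either group came from the array numbered 2, the groups overlapped, and the 95% interval of its difference ran from -0.42 to 0.50.

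The 3 Gadd45 genes, which encode small stress proteins that bind kinases and cell cycle regulators, gave differences of both signs, and limma called none of them. Gadd45b, also a known NF-kB target, was at 10.85, 10.90 and 10.21 in control and at 11.39, 11.17 and 11.22 in TWEAK cells, all above the controls (0.60, SE 0.18, adjusted p = 0.0973 in limma). Without control 3, its lowest control, the difference was 0.38. Gadd45a, a p53 target, was at 7.72, 7.50 and 7.41 against 7.36, 6.997 and 7.34, all below the controls (-0.31, SE 0.13, adjusted p = 0.213). Gadd45g differed by 0.14 (SE 0.16), which rested on TWEAK 3, at 9.08 where the other 5 arrays were at 8.45 to 8.61, and without it the difference was -0.06. Whether the 3 differ from each other was not tested.

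Plk2, a polo-like kinase that p53 can induce, was at 10.35, 10.44 and 10.43 in control and at 10.67, 10.98 and 10.91 in TWEAK cells. It came nearest to the threshold among the genes that missed it, without overlap (0.45, SE 0.10, adjusted p = 0.0542 in limma), and it passed with trended and robust variance (0.0395), with array weights (0.0162) and among the genes above the median (0.0432). Its relative Plk3, a stress-responsive kinase, differed by 0.22 (SE 0.10) with a slight overlap. Zmat3, an RNA-binding p53 target, differed by 0.14 (SE 0.11) and overlapped.

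**Figure D2:**
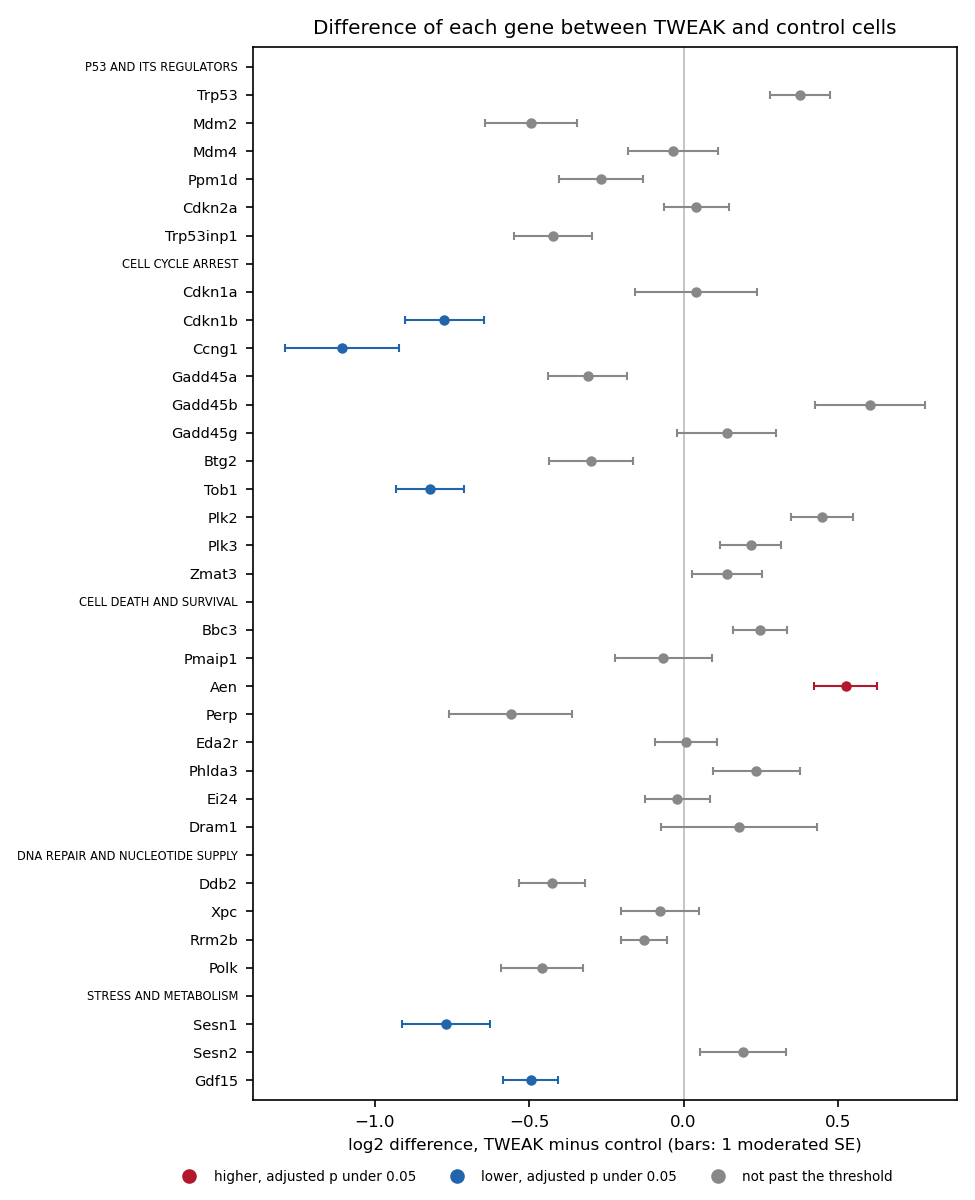
Points give the log2 difference between the means of 3 TWEAK and 3 control arrays for each gene, with bars of 1 moderated standard error, grouped by role. Ccng1, Tob1, Cdkn1b, Sesn1 and Gdf15 (lower) and Aen (higher) are coloured as past the threshold, and the other 26 are grey.

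In the 8 genes of cell death and survival, 1 rose and 7 did not pass, where 1.28% of all genes were called higher. Aen was at 8.07, 7.90 and 7.75 in control arrays and at 8.51, 8.35 and 8.43 in TWEAK arrays, so that the groups were separate and the TWEAK arrays close together (SD 0.08). It rose by 0.53 (SE 0.10, adjusted p = 0.0422 in limma), the only called rise of the 32. The call was kept without control 1 (0.0197) and lost without control 2 (0.147), control 3 (0.106), TWEAK 1 (0.124), TWEAK 2 (0.0644) or TWEAK 3 (0.120). The BH3-only death genes gave no call: Bbc3 (PUMA) was at 6.79, 6.73 and 6.58 against 6.89, 6.996 and 6.96, above the controls throughout (0.25, SE 0.09, adjusted p = 0.151 in limma), while Pmaip1 (NOXA) differed by -0.07 (SE 0.16) and overlapped.

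Perp, a p53 target that is also a desmosome protein of epithelia, was at 8.74, 8.81 and 9.43 in control and at 8.33, 8.25 and 8.72 in TWEAK cells. The difference of -0.56 (SE 0.20) did not pass (adjusted p = 0.150 in limma), with TWEAK 3 just under control 1, and it was -0.34 without control 3. Eda2r, a TNF receptor family member and p53 target, lay at 4.85 to 5.12 on all arrays, near their lower quartile, so a change in it could go unseen. The Akt inhibitor Phlda3 differed by 0.24 (SE 0.14), Dram1, a lysosomal inducer of autophagy, by 0.18 (SE 0.25), and the endoplasmic reticulum protein Ei24 by -0.02 (95% interval -0.26 to 0.22), all with overlap. Dram1 varied most among the control arrays, from 6.29 in control 3 to 7.23 in control 2.

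All 4 genes of DNA repair and nucleotide supply had differences below 0, and limma called 0 of them, with 2 lower before adjustment. Of all 22061 genes 9153 had differences below 0, and 13.1% were lower before adjustment. Ddb2, which recognises ultraviolet damage for excision repair, was at 6.77, 7.06 and 6.98 in control and at 6.40, 6.48 and 6.65 in TWEAK cells, without overlap (-0.43, SE 0.11, adjusted p = 0.0693 in limma). Without control 1 its adjusted p was 0.0319, and with array weights 0.0100. Polk, a polymerase that copies past lesions, was at 6.12, 6.36 and 6.59 against 5.83, 6.06 and 5.80, also without overlap (-0.46, SE 0.13, adjusted p = 0.0958 in limma), and passed without control 1 (0.0326). Rrm2b, the p53-inducible ribonucleotide reductase subunit, was very even in the controls, at 6.20, 6.21 and 6.20, and lower in TWEAK arrays at 6.03, 6.10 and 6.10. That difference of -0.13 (SE 0.07) did not pass (adjusted p = 0.385 in limma). The repair sensor Xpc differed by -0.08 (SE 0.13) and overlapped.

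Of the 3 genes of stress and metabolism 2 fell, where 1.71% of all genes and 3.14% of those above the median gene were called lower. Sesn1, a sestrin that restrains mTORC1 signalling, was at 8.09, 8.32 and 8.38 in control and at 7.68, 7.60 and 7.20 in TWEAK cells, separate in every pair, and fell by 0.77 (SE 0.14, adjusted p = 0.0394 in limma). Its relative Sesn2 was at 8.73, 8.71 and 8.47 against 9.01, 8.54 and 8.95, overlapping, and differed by 0.19 (SE 0.14, adjusted p = 0.495). The difference between both sestrins was not tested.

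Gdf15, a secreted member of the TGF-beta superfamily that p53 and the integrated stress response induce, was at 9.84, 9.76 and 9.70 in control arrays and at 9.25, 9.19 and 9.38 in TWEAK arrays. Both groups were tight (SD 0.07 and 0.10), and did not overlap, and Gdf15 fell by 0.49 (SE 0.09, adjusted p = 0.0371 in limma). Sesn1 and Gdf15 kept their calls without control 1 (0.0212 and 0.0359) and lost them without control 2 (0.142 and 0.136), control 3 (0.106 and 0.0810), TWEAK 1 (0.0943 and 0.110), TWEAK 2 (0.0582 and 0.0697) or TWEAK 3 (0.0934 and 0.0847).

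The 6 called genes kept their signs over the alternatives. Their groups did not overlap, so leaving out 1 array could not change a sign. The replicate block, the variance model and the choice of brighter genes leave a difference as it is. Ccng1 ranged from -1.26 to -0.87 over 14 alternatives, Cdkn1b from -0.93 to -0.68, Tob1 from -0.92 to -0.76, Sesn1 from -0.86 to -0.62, Gdf15 from -0.55 to -0.45 and Aen from 0.45 to 0.60. With any 1 array left out, the largest unadjusted p of these genes was 0.00478, for Aen, in limma. The genes were picked by their p on these same arrays, so a small p here is partly set by that choice. Control 3 was above control 1 for 4 of the 5 genes that fell, Gdf15 being the exception, and below it for Aen. Over all genes called lower 95.5% had control 3 above control 1, over all called higher 14.1%, and over all genes 37.9%. The part of this spread among control arrays in the calls was not tested.

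**Figure D3:**
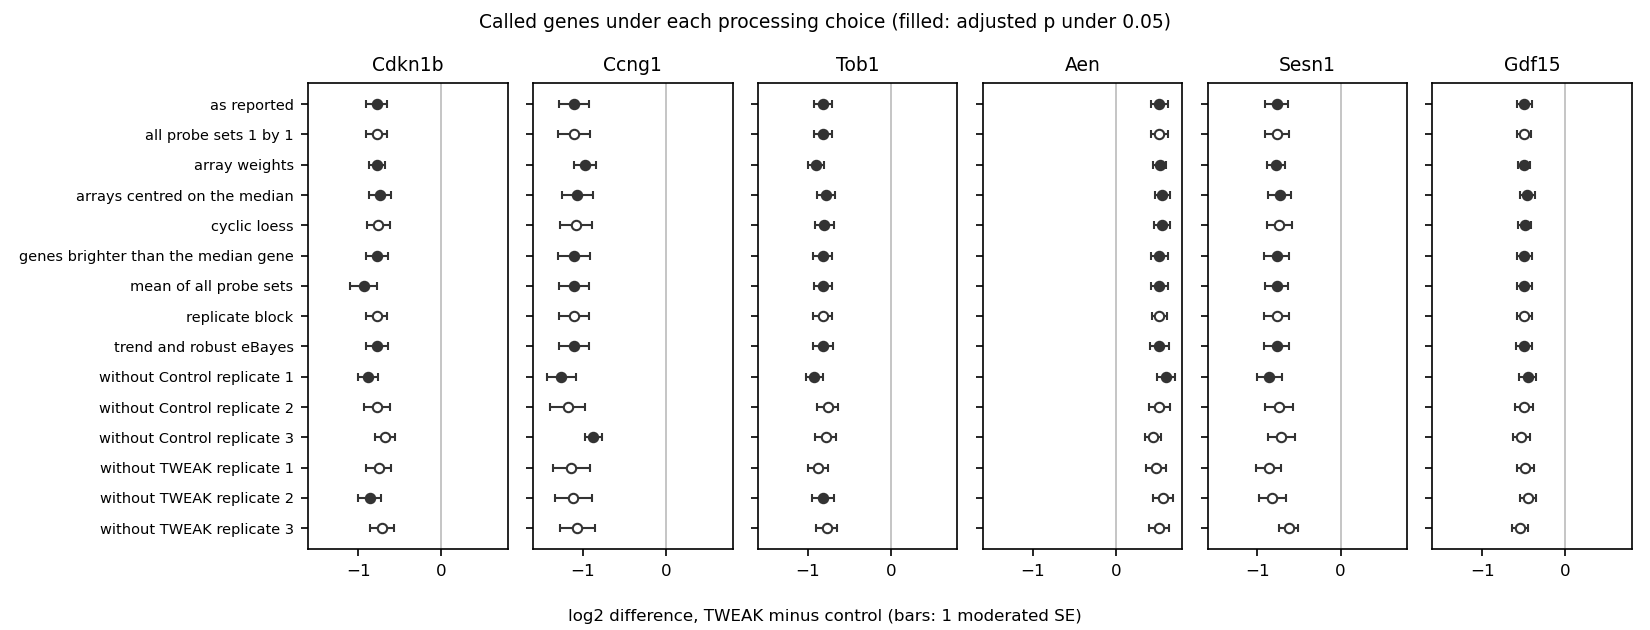
Panels show the 6 called genes, with the log2 difference (TWEAK minus control) and 1 moderated standard error under each processing choice or left-out array, filled where the adjusted p was under 0.05. Positions stay on 1 side of 0 throughout, while fill is lost for all 6 with the replicate block and without control 2, TWEAK 1 or TWEAK 3.

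Beyond the 32, 57 further genes of these pathways were taken from 3 lists, and 6 of them passed, 2 higher and 4 lower, against 3.00% of all genes. The lists were chosen with earlier results of these data known, so these counts are a description. Of the 57, 48 were above the median gene, and of all genes above it 5.55% passed. Leaving out control 1 gave 13 calls and leaving out TWEAK 2 gave 4, whereas leaving out control 2, control 3, TWEAK 1 or TWEAK 3 gave 0 in each case. Over all genes the calls rose to 1876 when control 1 was left out and were 63 or fewer when any of those 4 was. Of 17 other regulators of p53, 1 fell: the checkpoint kinase Chek2, which phosphorylates p53 after DNA damage, was at 8.75, 8.92 and 9.04 in control and 8.10, 8.39 and 7.93 in TWEAK cells (-0.76, SE 0.13, adjusted p = 0.0365 in limma). The groups were apart, and 14 of these 17 regulators had differences below 0, as did 9153 of all 22061 genes. The 14 included the ubiquitin ligase Cop1, named Rfwd2 in the file, at -0.50 (SE 0.13, adjusted p = 0.0691 in limma), and the ligase Rchy1 at -0.29 (SE 0.08, adjusted p = 0.0778). With 1 array left out the adjusted p of Chek2 ranged from 0.0197 to 0.134, and the call was kept without control 1 or TWEAK 2. The median of the regulator list was -0.27, beside 0.03 for all genes. Of these regulators 15 were above the median gene, and over all genes above it the median difference was -0.0095.

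Of 25 other p53 targets, 2 rose and 1 fell, with a median of 0.07. Among all genes 1.28% were called higher and 1.71% lower. The death receptor gene Tnfrsf10b was at 9.97, 9.71 and 9.86 in control and at 10.68, 10.21 and 10.62 in TWEAK cells, above the controls throughout (0.66, SE 0.14, adjusted p = 0.0485 in limma). The membrane tetraspanin gene Cd82 was at 11.80, 11.75 and 11.51 against 12.29, 12.17 and 12.25, again apart (0.55, SE 0.10, adjusted p = 0.0368). Ckap2, a spindle protein that is most abundant in dividing cells, was at 8.35, 8.54 and 8.65 against 7.44, 8.005 and 7.51, and fell by 0.86 (SE 0.16, adjusted p = 0.0377 in limma). All 3 were also called without control 1, and Tnfrsf10b and Ckap2 without TWEAK 2, but none without control 2, control 3, TWEAK 1 or TWEAK 3, where the adjusted p reached 0.167, 0.130 and 0.136 for Tnfrsf10b, Cd82 and Ckap2. Before adjustment the largest p with 1 array left out was 0.00726, for Tnfrsf10b, in limma. These 3 genes too were picked by their p on the same arrays.

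Of 15 other growth arrest genes 2 fell and 0 rose, with a median of -0.26. Among all genes 1.71% were called lower, and among those above the median gene 3.14%. The retinoblastoma gene Rb1, whose product holds back E2F factors, was at 7.26, 8.0002 and 7.82 in control and at 6.65, 6.76 and 6.38 in TWEAK cells, a fall of 1.09 on the log2 scale (SE 0.19, adjusted p = 0.0365 in limma). The kinase inhibitor Cdkn2c (p18) was at 9.80, 9.93 and 10.18 against 9.03, 9.23 and 9.19, and fell by 0.82 (SE 0.12, adjusted p = 0.0246). In both genes the groups were apart, and both calls were kept without control 1, that of Cdkn2c also without TWEAK 2, and neither without control 2, control 3, TWEAK 1 or TWEAK 3. Adjusted p ranged from 0.00999 to 0.129 for Rb1 and from 0.0136 to 0.109 for Cdkn2c with 1 array left out. Across the 3 lists, 20 genes had all TWEAK arrays below the controls and 6 had them above, against 13.5% and 12.9% of all genes. The shares were not taken among brighter genes alone.

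**Figure D4:**
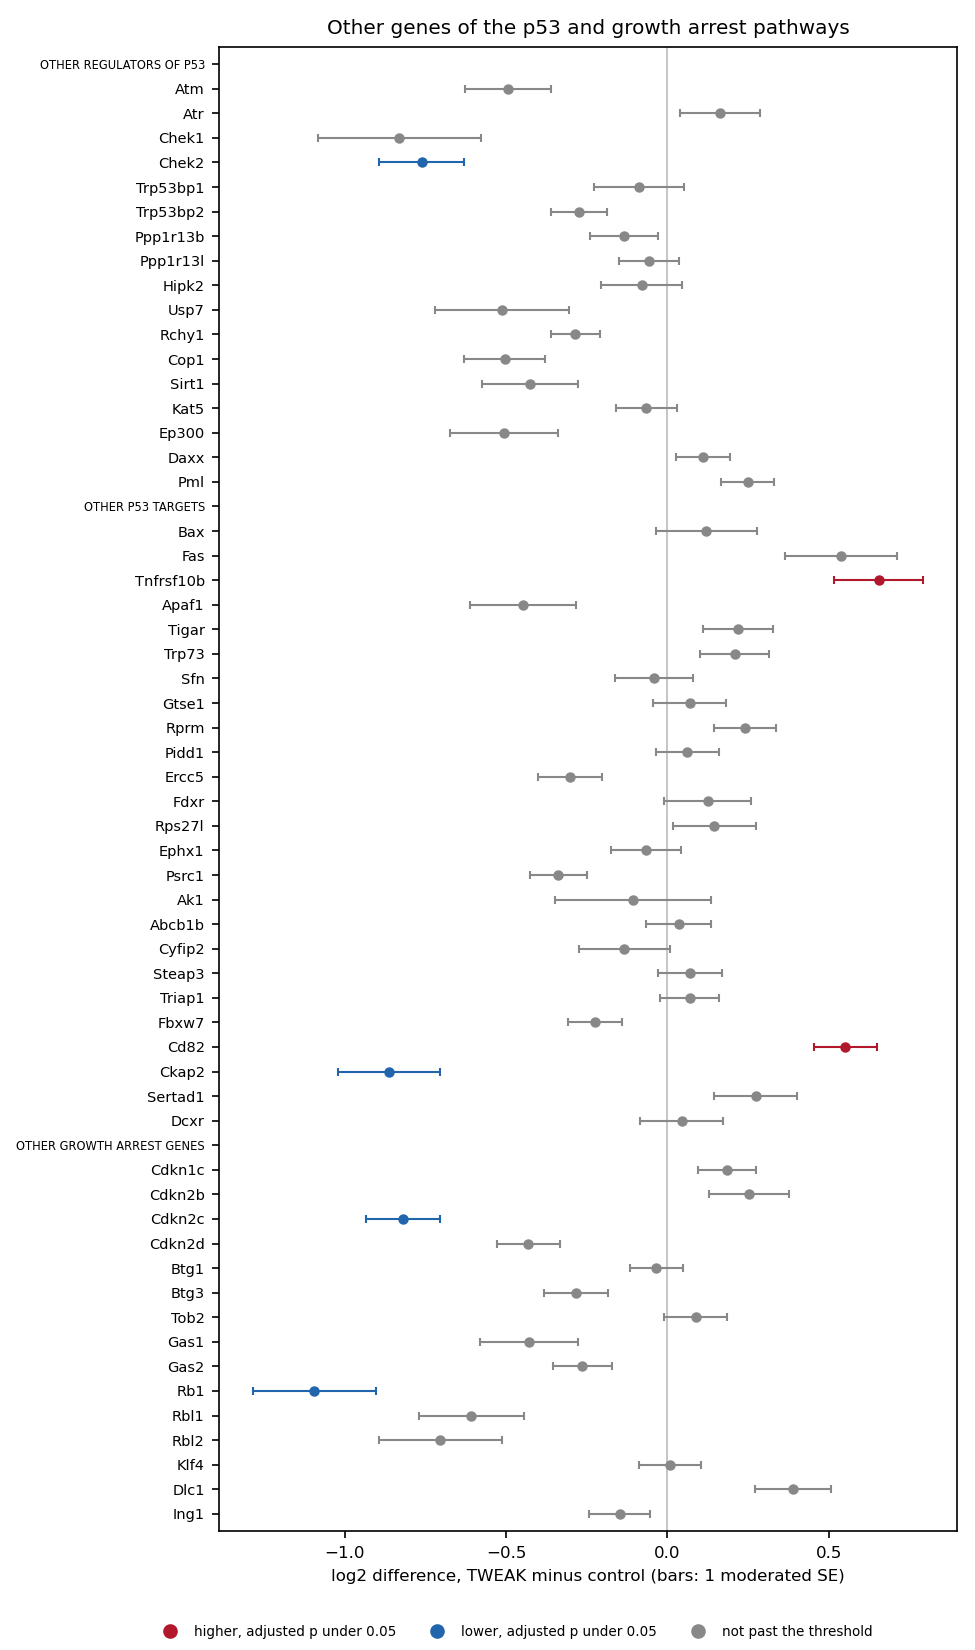
The 57 further pathway genes are plotted as log2 differences (TWEAK minus control) with bars of 1 moderated standard error, in 3 lists. Tnfrsf10b and Cd82 are coloured as higher, Chek2, Ckap2, Cdkn2c and Rb1 as lower, and 14 of the 17 other regulators of p53 lie to the left of 0.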

How the data were processed

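Arrays of 3 control and 3 TWEAK cultures were grouped by sample titles. The authors deposited log2 values per probe set, which the submitters' processing notes credit to Expression Console of Affymetrix with RMA. The sources used here name no version, annotation or build. Since RMA equalises the arrays' distributions, it would hide a change common to most genes. The authors also deposited a ratio of TWEAK over control, a p-value and a false discovery rate (a q-value) per probe set, per the file headers.

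Of 28361 probe sets, 22115 were named by accession, 1815 by symbol and 625 by synonym through a RefSeq table (GRCm38.p6), 910 kept the file's name, and 2894 with no symbol and 2 with several were left out. The probe set with the highest mean represented each of 22061 genes, with no filter on dim ones. TWEAK minus control was tested with limma 3.58.1 under R 4.3.3 (lmFit and eBayes, unblocked). P-values were adjusted by Benjamini-Hochberg across the named genes, and those under 0.05 were called. SE is the moderated standard error. Tables used Python 3.11.15, pandas 2.3.3 and matplotlib 3.10.9. All 32 genes are named, and from the 3 lists of other genes those past the threshold and otherwise up to 2 of the smallest p. The genes and lists were chosen with earlier results of these data known. In a simulation of 22061 genes made for this comparison, limma found 98 of 100 genes shifted by 1 (log2) and 100 of 100 shifted by 2. It called 205 genes there, 7 of them wrongly. Smaller shifts were not simulated, and of the called genes among the 32 all but Ccng1 differed by less than 1. Whether the simulated noise matches that of the real arrays was not tested. On the real arrays the count over all genes, 661, ran from 1 to 1876 with 1 array left out. The simulation therefore does not measure how reliable the calls are. Alternatives were a replicate block, trended and robust variance, brighter genes only, the mean of a gene's probe sets, all probe sets 1 by 1, median centring, cyclic loess, array weights and each array left out. The number of arrays limits the precision.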

Additional observations from a re-analysis of the deposited data

How the results depend on the processing

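The count of the 32 genes past the threshold, 6 as reported, was 0 with a replicate block (before adjustment limma put 5 higher and 12 lower at the threshold), 1 over all probe sets 1 by 1, 3 after cyclic loess and 11 with array weights, and 0 to 8 with 1 array left out. The count of 57 other pathway genes, 6 as reported, was 2 with a replicate block, 1 over all probe sets, 1 after cyclic loess, 18 with array weights, and 0 to 13 with 1 array left out. The count of all genes, 661 as reported (283 higher, 378 lower), was 207 with a replicate block (122 higher, 85 lower), 107 over all probe sets (78 higher, 29 lower), 252 after cyclic loess (183 higher, 69 lower), 550 with median centring (325 higher, 225 lower), 1020 among brighter genes, 3223 with array weights, and 1 to 1876 with 1 array left out. Counts with array weights rest mostly on control 2 among the controls (weight 5.60, against 0.53 to 0.945 for the other arrays). The replicate number is not stated to pair the arrays, so the block is given here only. Deviations from the group means correlated across genes at 0.196, 0.359 and -0.07 for the like numbers 1, 2 and 3. Between unlike numbers the correlations ran from -0.487 to 0.288. The block moved standard errors in both directions, to 0.0902 from 0.2521 for Dram1, to 0.0917 from 0.1988 for Perp and to 0.1534 from 0.1422 for Sesn1. Whether the arrays are paired was not settled.

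Of 445 results of single genes under 14 alternatives, 371 kept their sign and their side of the threshold, 41 lost a call, 10 gained one and 23 changed sign, none of the last for a called gene. Many of these signs could not change. The replicate block, the variance model, the choice of brighter genes and all probe sets 1 by 1 leave a difference as it is. So does the mean of probe sets for a gene with 1 probe set. Signs changed with array weights for Mdm4 (0.11), Cdkn2a (-0.0028), Ei24 (0.0904) and Dram1 (-0.14), with median centring for Mdm4 (0.0028) and Ei24 (0.0166), and after cyclic loess for Eda2r (-0.0416). With 1 array left out the ranges were -0.12 to 0.14 for Mdm4, -0.0464 to 0.11 for Cdkn2a, -0.0895 to 0.26 for Cdkn1a, -0.0607 to 0.25 for Gadd45g, -0.23 to 0.0432 for Pmaip1, -0.0478 to 0.0888 for Eda2r, -0.0921 to 0.0832 for Ei24, -0.0462 to 0.42 for Dram1 and -0.19 to 0.0526 for Xpc. Rrm2b, Polk and Eda2r had no value among brighter genes. No measure of signal over background was used, so a change in dim genes could go unseen.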
